A study of Mus musculus with 4 samples.

Results

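Septins are GTP-binding proteins that join into rod-shaped complexes of different family members, and the rods assemble further into filaments and rings. They lie under the plasma membrane and along actin bundles, form a scaffold and diffusion barrier at the cleavage furrow, and are known for their part in cytokinesis, the base of cilia and the shape of neurons. Members fall into groups by sequence, and a rod usually draws its subunits from several groups.

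The 6 septins described here are Sept2, Sept3, Sept5, Sept6, Sept7 and Sept8, out of 25030 genes with a deposited value. They were chosen by name, as the septins that Additional File 4, the study's table of gene responses, pairs with a probe, and the rule uses no measured value. The other comparisons in that table are not used here. Each septin was measured by 1 probe with 1 spot on each of 4 arrays.

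RNA came from B6R(5) cells, an embryonic stem (ES) cell line of strain C57BL/6 from a male, so all cultures were of 1 line. The groups were a control given DMSO alone and cultures given FGFR inhibitor PD173074 at 100 μM, MEK inhibitor PD98059 at 25 μM or GSK-3 inhibitor BIO at 2 μM. FGFR is the receptor of fibroblast growth factors, MEK is the kinase that activates ERK, and GSK-3 is the kinase that marks beta-catenin for destruction. These doses are those of the Methods, while the list of data sets in Additional File 1 gives mM in place of μM. Treatment began 24 hr after plating and lasted 48 hr, with 0.2% DMSO in every culture. There was 1 culture and 1 array per condition, so no value below has a replicate check and no p-value is given. ES cell RNA carried Cy3 and the reference, an RNA mix of several mouse cell lines, carried Cy5. For the study's organ arrays, the Methods give the reference as Stratagene Universal Mouse Reference RNA with RNA of MC1 cells added. They say that RNA of the inhibitor cultures was processed as described. Dyes were not exchanged, so a dye bias of a probe stays in every ratio to the reference and cancels only between arrays. All 4 arrays were on the same slide, and Cy3 was well above background for 16923 to 17427 genes on each.

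The probes are shown because each septin rests on a single oligonucleotide. All are 60 bases long, the first 30 bases are printed 5′ to 3′, and no capitals are used.

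Sept2, probe Z00035387-1: ataaatttaatgagaaaatacatttgctcg

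Sept5, probe Z00025297-1: cggtagagacggggtgtccctatgcctaga

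Sept3, probe Z00043471-1: tagaaatcatgcccagactttctaaattga

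Sept6, probe Z00048785-1: ttttttaacgttgtcttcagcagctgtact

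Sept8, probe Z00035204-1: caatatgctggacatgtgactcatggctag

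Sept7, probe Z00003742-1: agaaaggcaagatcttttaaactctattga

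The files mark all of these probes as unmapped, so no genome position is given. RefSeq now names the genes Septin2, Septin5, Septin3, Septin6, Septin8 and Septin7, and all 6 symbols matched. No other probe of the array shared a run of 16 bases with any of the 6. GC content was 33.3% for the Sept2 probe, 35.0% for those of Sept3 and Sept7, 36.7% for Sept6, 46.7% for Sept8 and 55.0% for Sept5, against a median of 43.3% over the probes of all genes. The probes of Sept2, Sept3 and Sept7 were thus poorer in G and C than most, with 4.29% to 5.93% of genes lower. The Sept5 probe was richer than those of 88.7% of genes.

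Each ratio below is the log2 of Cy3 over Cy5 after background correction, at an offset that draws dim signals toward each other, and loess normalization within the array. A septin was called above or below the reference when the ratio was at least 1.5-fold, with the same sign on all 4 arrays and with Cy3 and Cy5 well above background on each. Of the 6 septins, 5 met the background condition, 1 was above the reference and 3 were below it. Among the 15411 genes that met it, 50.4% were called, 24.6% above and 25.9% below, so being called was common and says little about septins. In bulk RNA, fewer cells that express a gene and less of its RNA per cell cannot be told apart.

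In the group of Sept2, the septins best known from the cleavage furrow and from membranes, the Sept2 ratio was below 0 on every array. The log2 ratio of Sept2 was -0.68 in the control, -0.37 under FGFR inhibitor, -0.59 under MEK inhibitor and -0.51 under GSK inhibitor. The control and MEK inhibitor arrays passed 1.5-fold and the others did not, so Sept2 was not called. With median centring in place of loess it was called below the reference, at -1.16, -0.79, -0.90 and -0.88 in the same order. Its processed Cy3 signal, the intensity after the scanner software had removed background and balanced the dyes, was 10384 in the control, 13390 under FGFR inhibitor, 11886 under MEK inhibitor and 12136 under GSK inhibitor. Its processed Cy5 signal, from the same reference RNA each time, stayed between 16034 and 17086.

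Sept5, a member of the same group known from nerve terminals and platelets, was below the reference on all arrays. Its log2 ratio was -3.05 in the control, -3.11 under FGFR inhibitor, -3.21 under MEK inhibitor and -3.08 under GSK inhibitor, a median 8.55-fold deficit. The 4 arrays lay within 0.16 of each other. In the processed signals, which have no offset, the median deficit was 12.7-fold. The gap came with Cy5 signals of 2747 to 3356 beside Cy3 signals of 251, 275, 258 and 193 on the control, FGFR, MEK and GSK inhibitor arrays. In RefSeq (GRCm38.p6) Sept5 overlaps Gp1bb, which encodes a platelet receptor subunit, and which transcripts the Sept5 probe binds is not known from the files. The Gp1bb probe had log2 ratios of -0.35 to -0.27 and was not called, unlike the Sept5 probe.

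Sept3, of another group and best known from brain, was the only member called above the reference. Its log2 ratio was 1.31 in the control, 0.81 under FGFR inhibitor, 1.245 under MEK inhibitor and 1.11 under GSK inhibitor. The array with FGFR inhibitor was the lowest and the other arrays lay close together. The size of the excess depends on the background correction, and the signals were dim. The median excess was 2.26-fold with the offset and 9.38-fold in the processed signals, where Cy3 was 278, 134, 268 and 252 in the same order of arrays and Cy5 was 20.5 to 28.4. The mean Cy5 signals before correction were 63.0 to 67.8 over a local background of 44.0 to 49.0.

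Sept6 and Sept8 belong to the same group, whose members fill the same place in a septin rod beside Sept2 and Sept7. Sept6 was close to the limit of detection. Its mean Cy3 signal before correction was 63.7 in the control, 59.8 under FGFR inhibitor, 68.7 under MEK inhibitor and 57.6 under GSK inhibitor, over a local background of 37.0 to 39.0. The scanner software put it well above background on all arrays but that with GSK inhibitor. Its log2 ratio was 0.12 in the control, -0.15 under FGFR inhibitor, 0.05 under MEK inhibitor and -0.11 under GSK inhibitor, and from -0.69 to 0.32 in the processed signals, so that Sept6 could not be called either way.

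Sept8 was below the reference on all arrays. Its log2 ratio was -2.26 in the control, -2.01 under FGFR inhibitor, -2.29 under MEK inhibitor and -1.73 under GSK inhibitor. The array with GSK inhibitor was nearest to the reference, and those of the control and the MEK inhibitor were farthest from it and nearly equal. The median deficit was 4.40-fold with the offset and 4.51-fold in the processed signals.

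Sept7 stands alone in its group, and septin rods generally contain it. It was below the reference on all arrays. Its log2 ratio was -0.96 in the control, -0.93 under FGFR inhibitor, -1.11 under MEK inhibitor and -1.27 under GSK inhibitor, a median 2.04-fold deficit. The control and FGFR inhibitor arrays were nearly equal, and the GSK inhibitor array was the lowest. Processed Cy3 signals were 5982, 6651, 6134 and 5519 in the same order, and Cy5 was 10843 to 12263.

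**Figure D1:**
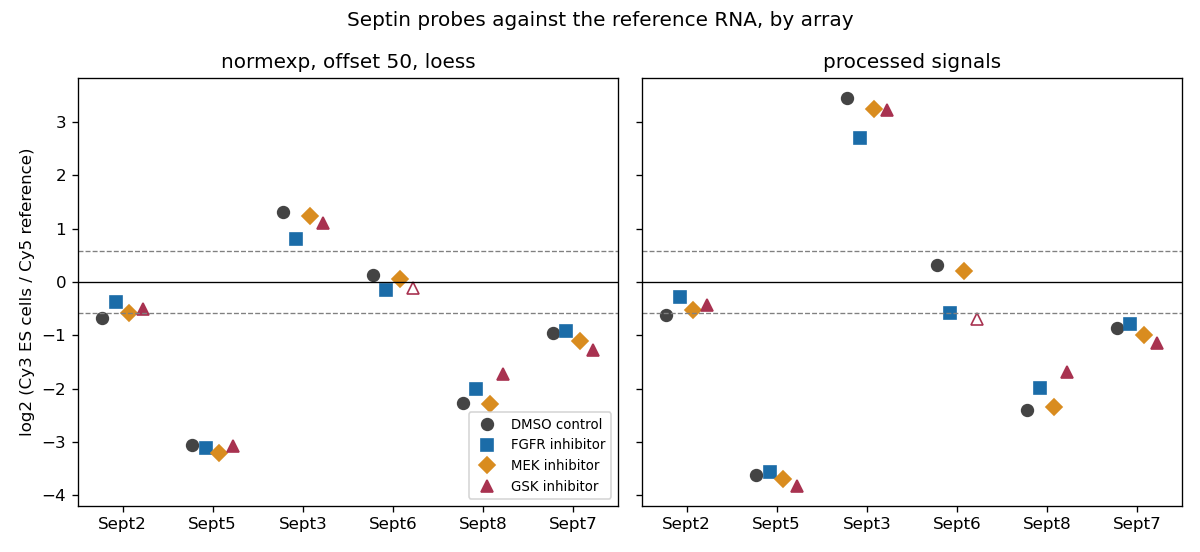
The y axis is the log2 ratio of Cy3 (ES cells) to Cy5 (reference RNA) for each septin probe, with 1 point per array, after background correction and loess (left) and from the processed signals (right). Dashed lines mark 1.5-fold, and the open triangle is the Sept6 spot not well above background. Sept3 lies above the reference and Sept5, Sept7 and Sept8 below it on all 4 arrays in both panels.

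No septin changed by 1.5-fold with any of the 3 inhibitors in these ratios, and Sept3 with FGFR inhibitor and Sept8 with GSK inhibitor came nearest. A change is the difference in log2 ratio, inhibitor minus control, and was called at 1.5-fold if the Cy3 spots of both arrays were well above background. With FGFR inhibitor 0 of 6 septins were called, with 5.7% of 16794 genes called. With MEK inhibitor 0 of 6 were called, with 1.06% of 16834 genes. With GSK inhibitor 0 of 5 were called, Sept6 not being measurable there, with 6.54% of 16465 genes. With shares this small among all genes, a count of 0 does not set the septins apart. The spots of Sept6 were so dim that the offset draws their change toward 0, so its absence from these counts says little. The median log2 change of the members was -0.02, -0.07 and -0.03 with FGFR, MEK and GSK inhibitor, beside -0.02, -0.01 and -0.003 over all genes measured.

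Beside each change stands a spread, the robust SD of the change among genes of similar Cy3 signal, which holds true changes as well as error. A measure within arrays comes from repeated spots. Over 7 probes printed 5 times, with mean Cy3 signals of 46.3 to 71.0, the SD of the change between spots had a median of 0.09 and reached 0.17. These spots lay near the local background, where the offset draws values together. Their SD thus does not measure the error of the brighter septins.

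In the ratios after background correction and loess, though not in the processed signals, the most negative change was that of Sept3 with FGFR inhibitor. That inhibitor had the lowest Sept3 ratio of the 4 arrays. The log2 change was -0.50, or 1.42-fold, 2.34 times the spread of 0.22, and 7.76% of genes changed at least as much. In the processed signals it was -0.75, past 1.5-fold, with a software error of 0.53 combined over both arrays. Processed Cy5 was 0.30 lower (log2) on this array than on the control array while Cy3 was 1.05 lower. The log2 changes of Sept3 with MEK and GSK inhibitor were -0.06 and -0.20, less than their spreads of 0.18 and 0.25. Directly between inhibitors, the Sept3 ratio with FGFR inhibitor was 0.44 (log2) below that with MEK inhibitor, 2.29 times the spread for that pair.

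The most positive change was that of Sept8 with GSK inhibitor, which had the highest Sept8 ratio of the 4 arrays. The log2 change was 0.53, or 1.45-fold, 1.98 times the spread of 0.27, and 8.30% of genes changed at least as much. In the processed signals it was 0.72, past 1.5-fold, with a software error of 0.40. Processed Cy3 was 634 in the control, 907 under FGFR inhibitor, 733 under MEK inhibitor and 1179 under GSK inhibitor, while Cy5 lay between 3365 and 3793. On the GSK inhibitor array Cy3 was thus 0.89 (log2) higher than on the control array, and Cy5 was 0.17 higher. With FGFR inhibitor the log2 change of Sept8 was 0.25, about equal to its spread of 0.24, and with MEK inhibitor -0.03. Directly between inhibitors, the Sept8 ratio with GSK inhibitor was 0.56 (log2) above that with MEK inhibitor, 2.38 times the spread, and 0.28 above that with FGFR inhibitor, 1.03 times the spread.

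Sept6, the relative of Sept8, did not follow it in value. The log2 change of Sept6 with FGFR inhibitor was -0.27, 1.85 times a spread of 0.15, and -0.07 with MEK inhibitor. In the processed signals the change with FGFR inhibitor was -0.91, past 1.5-fold, with a software error of 0.39, on Cy3 signals of 68.0 and 39.6 on the control and FGFR inhibitor arrays. With GSK inhibitor the Cy3 of Sept6 was not well above background, so no call was made. Setting the control's normalized Cy3 signal against the dim array's own value gave 1.16-fold lower, or 0.21 on the log2 scale. This is an estimate for that normalization only and not a bound. The log2 change ran from -1.02 to -0.18 over the 8 ways of processing compared in the plot of settings.

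The other members, Sept2, Sept7 and Sept5, were not called with any inhibitor in either kind of signal. The log2 change of Sept2 was 0.32 with FGFR inhibitor, 1.46 times the spread of 0.22, and 0.10 and 0.18 with MEK and GSK inhibitor, under their spreads of 0.14 and 0.27. All inhibitor arrays were above the control for Sept2, in value, and no change reached 1.5-fold. The log2 change of Sept7 was 0.03 for FGFR, -0.15 for MEK and -0.31 for GSK inhibitor, the last 1.12 times the spread of 0.28. For Sept5 the log2 changes of -0.06, -0.16 and -0.03 with FGFR, MEK and GSK inhibitor were all under the spread, and the first turned to 0.05 in the processed signals. Small changes with MEK inhibitor also had no settled sign, as that of Sept8 was 0.06 in the processed signals and that of Sept7 was 0.03 under median centring.

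**Figure D2:**
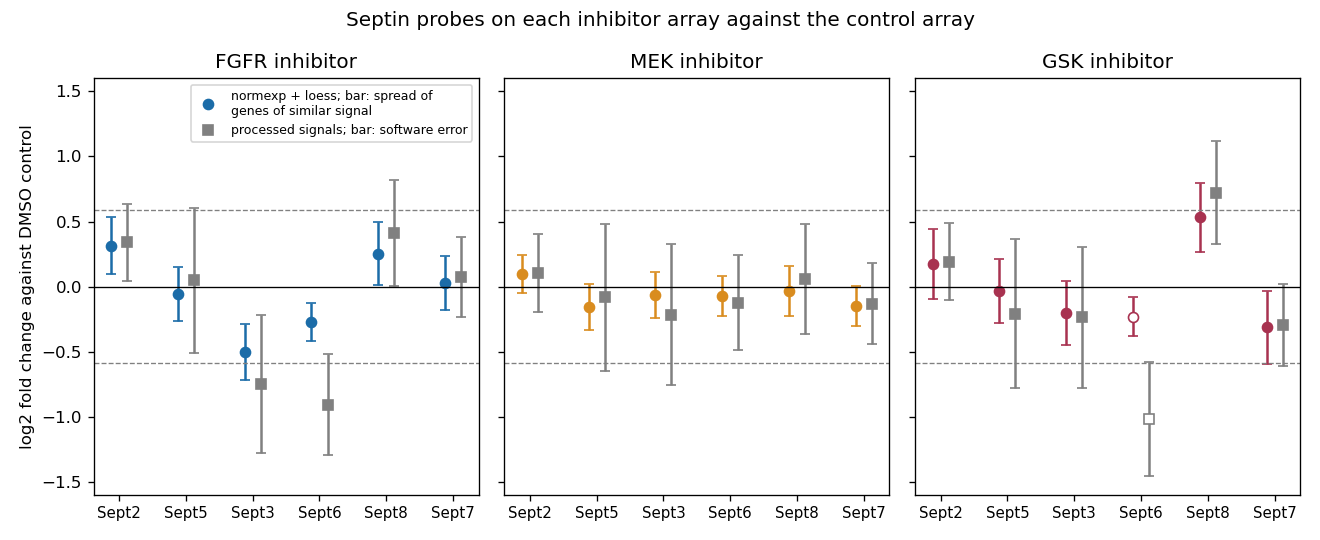
The y axis is the log2 fold change of each septin on an inhibitor array against the control array, with 1 panel per inhibitor. Circles are values after background correction and loess with the spread of genes of similar signal as bars, squares are processed signals with the software's error as bars, open symbols are not well above background on both arrays, and dashed lines mark 1.5-fold. Only squares pass the lines, for Sept3 and Sept6 with FGFR inhibitor and for Sept6 and Sept8 with GSK inhibitor.

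**Figure D3:**
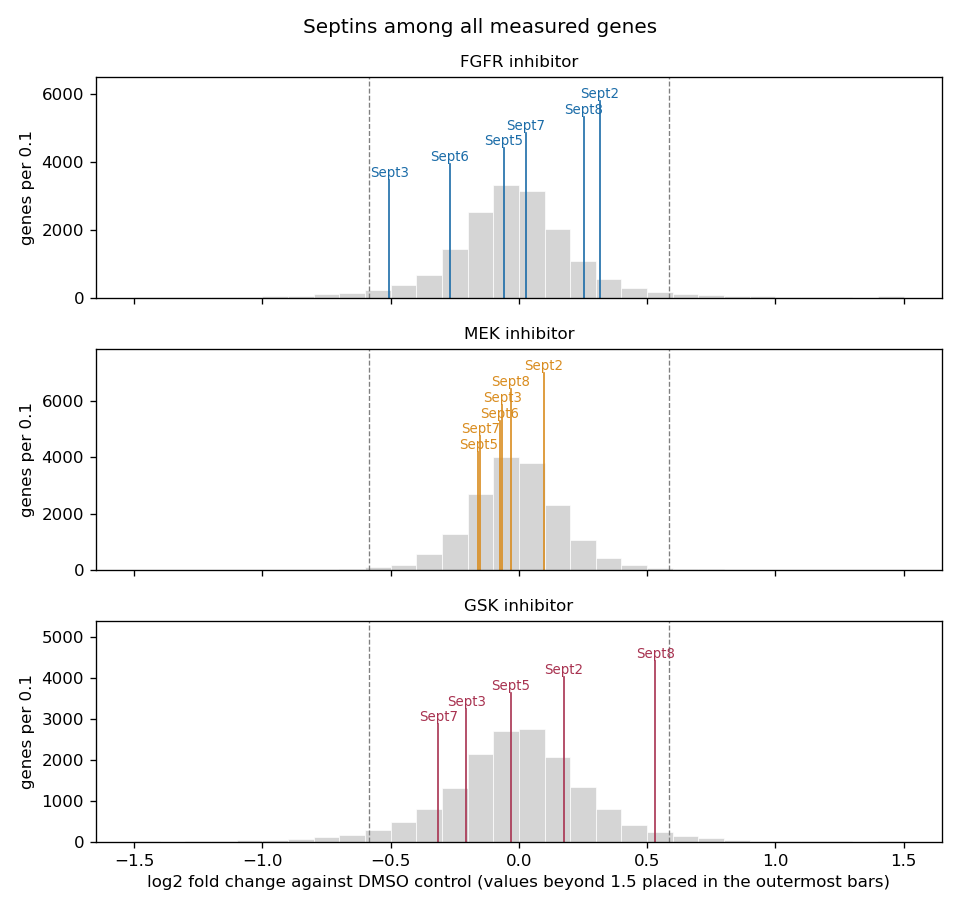
Bars count all measured genes by log2 fold change against the control in steps of 0.1, with 1 panel per inhibitor, and labelled lines mark the septins, at heights chosen for legibility. The septins lie inside the dashed 1.5-fold lines in every panel, with Sept3 nearest the lower line for the FGFR inhibitor and Sept8 nearest the upper line for the GSK inhibitor.

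The processed signals differ in background correction and in dye normalization, and more genes were called in them. There, 2 of 6 septins were called with FGFR inhibitor, Sept3 and Sept6, both lower, beside 12.8% of genes called. None of 6 was called with MEK inhibitor, beside 6.74% of genes. With GSK inhibitor 1 of 5 was called, Sept8, which was higher, beside 15.1% of genes. Across 8 ways of processing the arrays, the log2 change of Sept3 with FGFR inhibitor ran from -0.75 to -0.35, that of Sept6 from -0.91 to -0.16, and that of Sept8 with GSK inhibitor from 0.53 to 0.72. These 8 are not all separate, since Aquantile does not alter a ratio and the deposited table repeats the processed signals. The sign held in all of them for these values, while the sizes lay on either side of 1.5-fold.

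**Figure D4:**
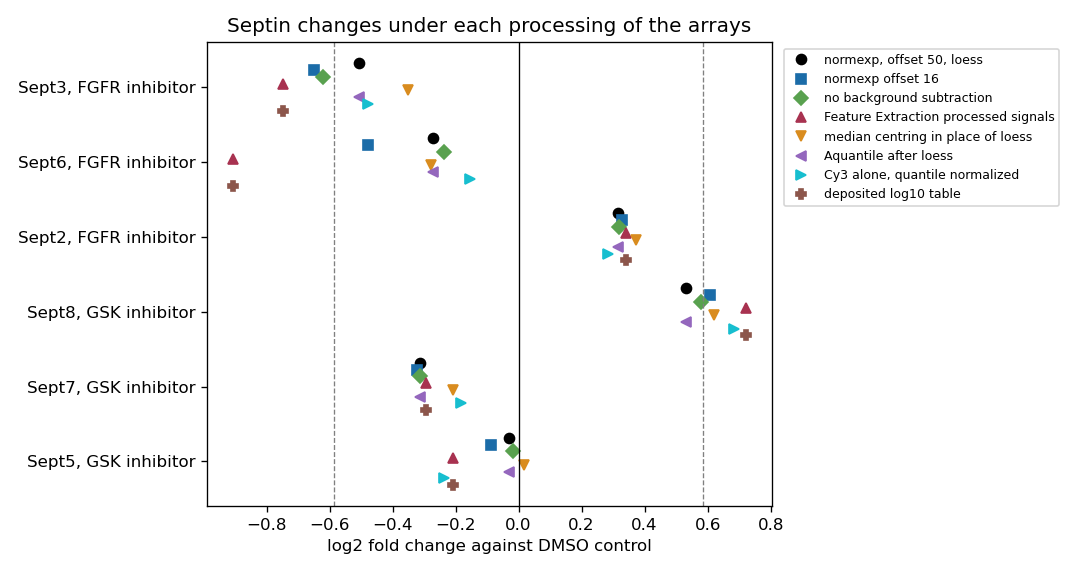
The x axis is the log2 fold change against the control array for 6 pairs of septin and inhibitor, with 1 symbol per processing, and dashed lines mark 1.5-fold. The symbols of Sept3 with FGFR inhibitor and of Sept8 with GSK inhibitor straddle the line, those of Sept6 are the most scattered, and those of Sept2 are tightly grouped.

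Compared directly after background correction and loess, the inhibitors gave no septin a 1.5-fold difference. The counts were 0 of 6 between FGFR and MEK inhibitor, 0 of 5 between GSK and FGFR inhibitor and 0 of 5 between GSK and MEK inhibitor, beside 2.86%, 6.05% and 4.87% of genes. With processed signals the counts were 1 of 6, 0 of 5 and 1 of 5, beside 9.75%, 14.1% and 11.8% of genes. Those called were Sept6, 0.78 (log2) lower with FGFR than with MEK inhibitor, and Sept8, 0.66 higher with GSK than with MEK inhibitor. For Sept2 the ratio with FGFR inhibitor was 0.22 (log2) above that with MEK inhibitor, 1.33 times the spread. For Sept7 the ratio with GSK inhibitor was 0.34 (log2) below that with FGFR inhibitor, 1.28 times the spread.

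Among the 8 other septins, 7 had a named probe, and none was called with any inhibitor, beside the 5.7%, 1.06% and 6.54% of all genes given above. There were 7, 6 and 5 of them measured with FGFR, MEK and GSK inhibitor, with median log2 changes of 0.01, 0.05 and 0.12. Sept9 had the largest change with each, at 0.41, 0.32 and 0.46 (log2), or 2.06, 2.22 and 1.70 times the spread. With MEK inhibitor the log2 change of Sept1 was 0.27, but 0.61 in Cy3 alone, past 1.5-fold. Its processed Cy5 was 0.49 (log2) higher there than on the control array. Against the reference, 5 of the 7 could be judged and only Sept1 was called, beside 50.4% of all genes. Sept1, of the group of Sept2 and Sept5, had log2 ratios of 1.12 in the control, 1.26 under FGFR inhibitor, 1.39 under MEK inhibitor and 1.102 under GSK inhibitor. It was thus above the reference where Sept5 was below it.

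Genes that act with septins in cell division, and actin genes, were followed as lists. Of 22 partner and cytokinesis genes on the list, 9 had a named probe, all were measured, and none was called with any inhibitor, beside the same shares of all genes, with median log2 changes of 0.01, 0.03 and 0.02 with FGFR, MEK and GSK inhibitor. Against the reference 4 of the 9 were called, all above it, beside 50.4% of all genes called and 24.6% above. They were Kif20a, a kinesin of the spindle midzone, with a median excess of 3.49-fold, and Plk1 (1.91-fold), a mitotic kinase. Also called were Cdca8 (2.41-fold) and Incenp (2.39-fold), subunits of the chromosomal passenger complex. Those not called had log2 ratios of -0.55 to -0.46 (Aurkb), 0.07 to 0.16 (Birc5) and -0.70 to -0.37 (Kif23). The ratios of Cdc42 were 0.06 to 0.16 and those of Rhoa -0.60 to -0.10, also not called. Of the 9 actin genes, all named and measured, 5 were called below the reference and none above it, beside 25.9% of all genes below. Whether either list differs from all genes was not tested. The deficit was 2.65-fold for Actb and 2.12-fold for Actg1, the cytoplasmic actins, 2.26-fold for Actn1, an actin crosslinker, and 1.70-fold and 2.34-fold for Actr3 and Arpc2 of the Arp2/3 complex. With processed signals Actg1 was no longer called and Pfn1, an actin monomer binder, was called above the reference. That setting called 59% of all genes. With the inhibitors 0 of 9 actin genes were called, beside the same 5.7%, 1.06% and 6.54% of all genes.

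Patterns of change close to those of septins were found among 4242 named genes by the distance over the 3 log2 changes. The nearest to Sept3 were Adarb1, an RNA-editing enzyme, at a distance of 0.05 and Rhbdd1, a rhomboid protease, at 0.06. The nearest to Sept8 were Adra2a, an adrenergic receptor, at 0.06 and 4930430E16Rik at 0.10. The distance rests on 3 values that share a control array, and describes these arrays only.

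The identity of the cells was checked on the few markers with a named probe. Of 17 ES cell markers 3 were named, and Tcfcp2l1, Prdm14 and Gbx2 were all called above the reference, beside 24.6% of all genes. Their log2 ratios were 2.97 to 3.39, 2.04 to 2.80 and 3.03 to 4.01. Of 14 markers of other cells 2 were named. Col3a1, a fibroblast collagen, was at -7.44 to -7.19, and Sox17, an endoderm factor, at 1.73 to 2.21. Processed Cy5 of Sox17 was only 23.6 to 29.5, and in the processed signals its log2 ratio was 4.05 to 4.70. The size of its excess thus depends on the processing. With FGFR, MEK and GSK inhibitor the log2 changes of Prdm14 were 0.60, 0.10 and -0.16, those of Gbx2 were -0.98, -0.22 and -0.22, and those of Tcfcp2l1 were 0.42, 0.40 and 0.41. For Tcfcp2l1 the processed Cy5 signal was 0.40, 0.51 and 0.80 (log2) higher than on the control array, and in Cy3 alone its changes were 0.76, 0.76 and 1.098, all past 1.5-fold. On the FGFR inhibitor array Prdm14 and Gbx2 passed 1.5-fold, but not in the processed signals, at 0.55 and -0.19. The Gbx2 spot was low there in both channels, with processed Cy5, from the same reference RNA, 2.07 (log2) lower than on the control array and Cy3 2.26 lower. Sox17 had log2 changes of -0.17, 0.11 and -0.37 with FGFR, MEK and GSK inhibitor, and of -0.57, -0.19 and -0.65 in the processed signals, the last past 1.5-fold. The part of these changes in the septin values was not tested.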

How the data were processed

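ES cell RNA (Cy3) of 4 cultures was hybridised with a common reference (Cy5) to 4 arrays of 1 slide. Conditions were taken from the sample labels. The authors deposited spot intensity from Agilent Feature Extraction 9.5.1.1 with local background, signals that this software had corrected and dye-balanced, and the resulting log10 ratio. A further deposited table holds log10 values of 1 probe per gene (25030 probes), whose differences between arrays match those of the processed log10 ratio. No column was left unmapped.

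Using limma 3.58.1 under R 4.3.3, normexp with an offset of 50 was fitted to mean intensity and median local background of every spot. After control spots and 3 or 4 outlier spots per array had been dropped, log2 ratios were loess-normalized, turned to Cy3 over Cy5, and averaged per probe. Fold changes were called at 1.5-fold with the software's flag for Cy3 well above background on both arrays. For the spread, genes were divided by Cy3 signal into 20 groups. Tables were made with Python 3.11.15, pandas 2.3.3 and numpy 2.4.6, and figures with matplotlib 3.10.9. The number of arrays limits the precision. The steps were tested on simulated arrays with known changes. Those were larger than the septin changes in the loess-normalized ratios, so that test does not cover changes of the septins' size.

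Gene names came from 5 supplementary tables of the study, which name 5619 of these probes (22.4%). Named are all 6 members, the partner genes with a named probe, and cytoskeleton genes past 1.5-fold in any comparison. Also named are other septins past 1.5-fold or with the largest change, Gp1bb and cell markers. For members with a log2 change of at least 0.5, the 2 named genes nearest in pattern are given. The rule for the members uses names only, but the family and the lists were chosen with earlier results of these data known. The processing was varied by an offset of 16, unsubtracted background, processed signals, median centring, Aquantile, quantile-normalized Cy3 without the reference, the deposited log10 values, thresholds of 2-fold and of 0.32 on the log2 scale, no filter, and a filter on both channels. RefSeq supplied current names.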

Additional observations from a re-analysis of the deposited data

How the results depend on the processing

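With 1 array per condition no replicate could be left out. No paired analysis was possible because every condition was hybridised once. The count of septins called with FGFR inhibitor moved from 0 to 1 (Sept3) at an offset of 16, without background subtraction and at the lower threshold, and to 2 (Sept3 and Sept6) in the deposited table and the processed signals. That with GSK inhibitor moved from 0 to 1 (Sept8) at an offset of 16, in the processed signals, with median centring, in Cy3 alone, in the deposited table and at the lower threshold. All genes moved too, from 957 to 2149 called with FGFR inhibitor, from 178 to 1135 with MEK inhibitor and from 1076 to 2493 with GSK inhibitor in the processed signals. The lower threshold called 17.3%, 8.33% and 22.2% of genes with FGFR, MEK and GSK inhibitor. An offset of 16 called 7.25% and 8.9% with FGFR and GSK inhibitor, no background subtraction 6.03% with FGFR inhibitor, and median centring and Cy3 alone 6.47% and 7.49% with GSK inhibitor. The count with MEK inhibitor stayed at 0 under all alternatives. Calls against the reference were 4, and 2 (Sept5 and Sept8) at 2-fold, beside 34.1% of genes. They were 5, with Sept2, under median centring and at the lower threshold, beside 51.9% and 64.2% of genes. Of 126 septin changes under the alternatives, 10 moved by more than the spread of genes of similar signal. Of 30 ratios to the reference on the control array, 11 moved by more than the SD over the 4 arrays. Both totals include Aquantile, which cannot move a ratio. The total of changes also includes the deposited table, which repeats the processed signals. Median centring put the median change of all genes with MEK inhibitor at 0.10 (log2) in place of -0.01, and that of Sept2 at 0.27 in place of 0.10. The cause was not tested. Further probes encoding a septin were to be sought by translation, which was not run. Dim signal limits Sept3, Sept5 and Sept6, and Sept6 was not well above background with GSK inhibitor.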
